A study of Mus musculus with 6 samples.

Results

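The corticotropin-releasing hormone (CRH) system is described here through 3 genes of 13170 in the deposited table: Crh, which encodes the peptide, Crhr1, its main receptor in brain, and Crhbp, the protein that binds the peptide outside cells. They were taken by gene name, and all 3 were found. The libraries were made from poly(A) RNA of brain tissue of C57 mice, 3 from a group with high sexual motivation and 3 from a group with low sexual motivation. All 6 samples share the genotype label C57, and the series title names adult males, the medial amygdala and the growth factor pathway of NRG1 and ErbB4. The labels differ on the tissue, since the title names the medial amygdala and the RNA protocol gives the abbreviation PrL. The sources used here do not give age in numbers, the scoring of motivation or any pooling of animals, so p-values measure the spread between these libraries, which may be technical.

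CRH is a peptide released by neurons, and it is best known from the hypothalamus, where it starts the hormonal stress response. It is also made in the central amygdala, in the bed nucleus of the stria terminalis and in inhibitory neurons of the cortex, where it acts as a local transmitter. CRHR1 is a receptor coupled mainly to the G protein Gs, which raises cyclic AMP, while CRHR2 responds chiefly to the related urocortins. CRHBP captures CRH and urocortin 1 and limits how much peptide reaches the receptors.

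Crh lies on chromosome 3 from 19693401 to 19695396 on the minus strand of GRCm38, with 2 exons. Crhr1 lies on chromosome 11 from 104132855 to 104175523 on the plus strand, with 13 exons. Crhbp lies on chromosome 13 from 95431371 to 95444924 on the minus strand, with 7 exons. In the GENCODE annotation, 0 other genes overlap any of the 3, so reads of an antisense neighbour are not mixed into these values. The whole precursor of CRH, 187 codons, is read from 1 exon, and its last part holds the hormone. The bases that encode the peptide are shown, since the Crh values count messages for this precursor (chr3:19693916-19694050, GRCm38, minus strand, 5′ to 3′). Capitals mark the pair of arginine codons at which the precursor is cleaved and, after the 41 codons of the peptide, the glycine and lysine codons at its end, where the glycine gives the amide.
Crh: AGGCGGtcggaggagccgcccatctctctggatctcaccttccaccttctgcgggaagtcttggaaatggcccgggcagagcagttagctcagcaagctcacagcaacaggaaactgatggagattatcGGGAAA

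Values are FPKM, which are scaled to transcript length and to mapped fragments, so levels can be roughly compared between genes. Effects of GC content and of the transcript model are not removed by this scaling. Absolute depth is unknown, and relative depth, read from 1428 genes of low FPKM, lay between 0.917 and 1.28 of the median library. High library 2 was the deepest and had the smallest mitochondrial share of summed FPKM, 11.1%, against 13.6% to 16.4% in the other libraries. Low libraries 1 and 3 carried choroid plexus RNA, with a sum of 1340 and 4174 FPKM over 10 marker genes, where low library 2 had 81.8 and the high libraries 41.5 to 111. Of 8 marker genes of the medial amygdala, 7 were listed, with Lhx6 between 7.67 and 9.50 FPKM and Foxp2, Lhx9 and Esr1 below a mean of 1. Cyp19a1 was not analysed here. Markers of cortical excitatory neurons were present too, with Tbr1 at 9.74 to 14.7 FPKM.

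The binding protein had the highest level of the 3 genes in every library, followed by the receptor and the peptide. Averaged over the 6 libraries, Crhbp stood at 13.5 FPKM, above 72.5% of the listed genes. Crhr1 stood at 8.21 FPKM and above 58.4% of them, and Crh stood at 2.47 FPKM and above 25.0%. The ranges of Crhbp, 11.6 to 18.2 FPKM, and of Crhr1, 7.15 to 9.92 FPKM, did not meet, and neither met that of Crh, 1.17 to 3.48 FPKM. Ucn3, the gene of urocortin 3, a ligand of CRHR2, averaged 4.03 FPKM (2.19 to 5.88), and its range overlapped that of Crh. Crhr2 averaged 1.78 FPKM (1.37 to 2.51) and overlapped both Crh and Ucn3. The other urocortin genes, Ucn and Ucn2, were not analysed here.

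Crh was 2.12, 2.23 and 3.48 FPKM in the high libraries, against 2.49, 3.31 and 1.17 FPKM in the low libraries. The groups overlapped throughout: the highest value was that of high library 3, the next that of low library 2, and low library 3 stood lowest. Crh averaged 2.61 ± 0.755 FPKM in the high group, against 2.32 ± 1.08 FPKM in the low group (SD, n = 3 each), so the means differed by less than either SD. On log2(FPKM + 1), a scale that shrinks changes at low levels, the difference of high minus low was 0.16 (SE 0.250; 95% interval −0.42 to 0.73). It did not pass the test (limma adjusted p = 0.863 over 12026 genes; exact 2-sided permutation p = 0.9, where 0.1 is the smallest that 3 against 3 can give). The direction rested on single libraries, since the difference was −0.12 without low library 3 and −0.0080 without high library 3. Without low libraries 1 and 3 it was −0.28 (SE 0.232), on the assumption that the single low library left varies as the high ones do.

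**Figure D1:**
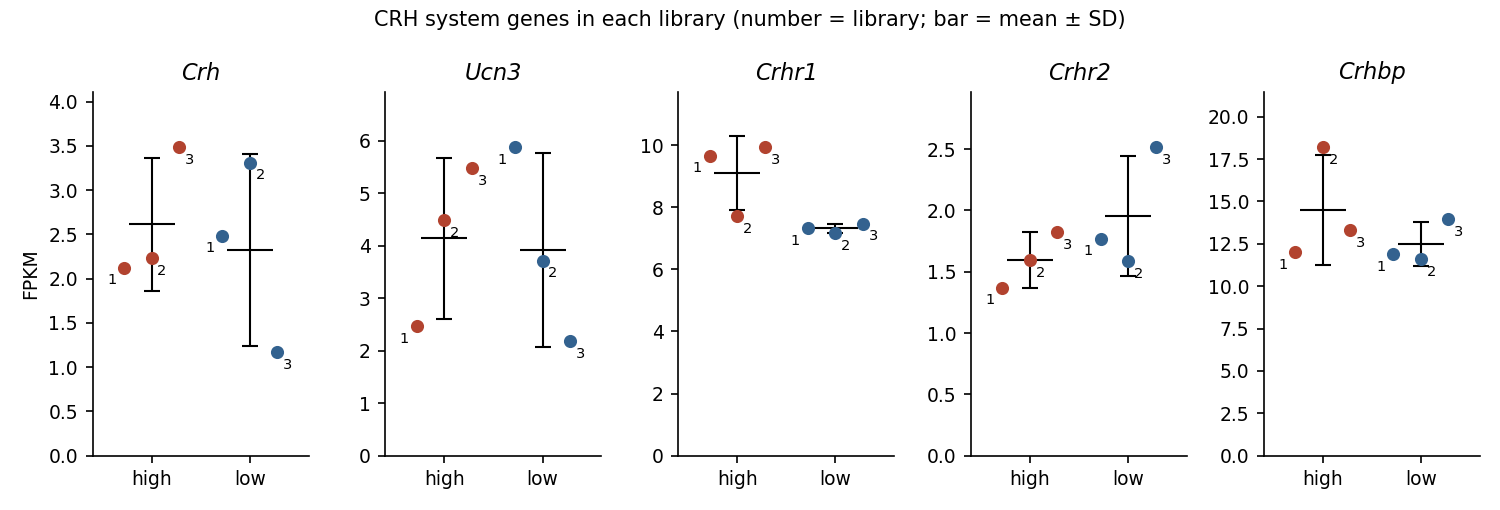
FPKM of the peptide genes Crh and Ucn3, the receptor genes Crhr1 and Crhr2 and the binding protein gene Crhbp in each library, the high group left of the low group, each axis starting at 0; horizontal bars and whiskers are the mean ± SD of 3 libraries. Of these 5 genes Crhr1 alone has separate groups, where the lowest high library (7.72) lies just above the highest low library (7.47).

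Crhr1 was the member with separate groups, and its level was somewhat higher in the high group. Its level was 9.66, 7.72 and 9.92 FPKM in the high libraries, against 7.33, 7.15 and 7.47 FPKM in the low libraries. All 3 low libraries lay close together, high libraries 1 and 3 lay well above them, and high library 2 lay just above them. The gene averaged 9.10 ± 1.20 FPKM in the high group, against 7.32 ± 0.156 FPKM in the low group (SD, n = 3 each), a ratio of 1.24. The log2 difference was 0.27 (SE 0.0941; 95% interval 0.06 to 0.49), with an unadjusted p of 0.0198 in limma that ranked 410 of 12026. It did not pass over all genes (limma adjusted p = 0.572), and the exact 2-sided permutation p of 0.1 is the smallest this design allows. Among all tested genes, 7.33% were separate and higher in the high group and 8.39% had an unadjusted p under 0.05 in limma, while 0% passed after adjustment. The authors' deposited table gives Crhr1 a log2 fold change of 0.315 and a p of 0.0633 with no adjustment.

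Crhr1 stayed higher when any 1 library was left out, with differences of 0.21 to 0.38 and adjusted limma p-values of at least 0.117. The largest of these was without high library 2. Crhr1 transcripts have a GC content of 58.2%, where the median of the tested genes is 50.2%, and over 11924 genes the difference between the groups followed GC content with a Spearman rho of 0.387 across genes, which are not independent replicates. With a trend on GC content and length removed, the Crhr1 difference was 0.22 (SE 0.0983; limma adjusted p = 0.650) and its unadjusted limma p was 0.0520.

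Crhbp was 11.99, 18.2 and 13.3 FPKM in the high libraries, against 11.9, 11.6 and 14.0 FPKM in the low libraries. Apart from high library 2 all values lay within a narrow band, and high library 3 stood below low library 3. The gene averaged 14.5 ± 3.26 FPKM in the high group, against 12.5 ± 1.30 FPKM in the low group (SD, n = 3 each). The log2 difference of 0.19 (SE 0.143; 95% interval −0.14 to 0.52) did not pass (limma adjusted p = 0.722; exact 2-sided permutation p = 0.5). Without high library 2 it was 0.02, so that the difference between the means rested on that library.

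The 3 genes differed in how tightly libraries of the same group agreed. The SD within groups of log2(FPKM + 1) was 0.413 for Crh, larger than that of 98.3% of the tested genes and of 97.4% of the 500 genes closest to it in level. Crhbp had 0.228, larger than 93.6% of its 500 neighbours in level, with high library 2 farthest from the mean of its group. Crhr1 had 0.127, larger than 68.4% of its neighbours. Ucn3 had 0.513, above 97.2% of its neighbours, so both peptide genes varied more between libraries of a group than nearly all genes at their level.

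**Figure D2:**
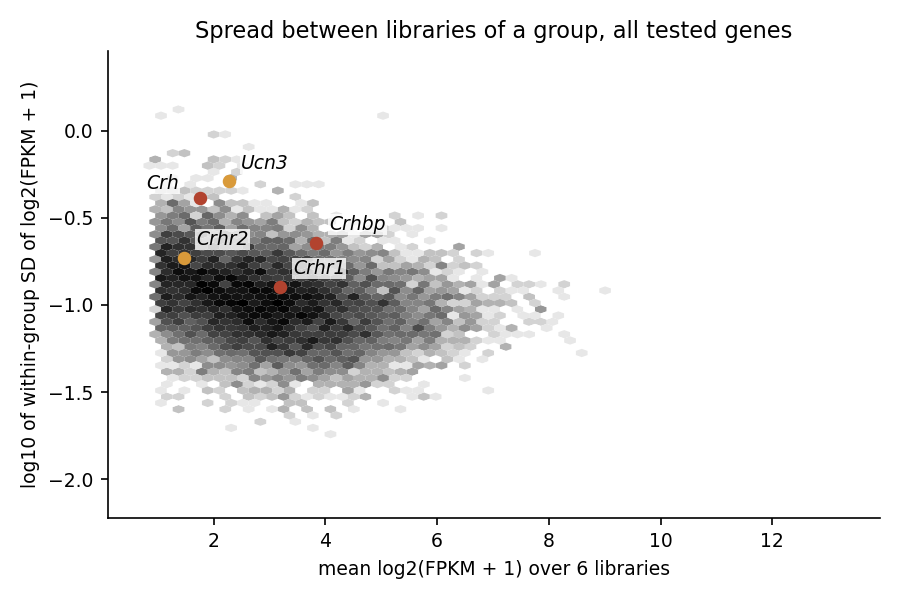
Within-group SD of log2(FPKM + 1) on a log10 axis against mean log2(FPKM + 1), for all 12026 tested genes (grey, darker where more genes lie) with the CRH genes in red and the other family genes in orange. Crh (SD 0.413) and Ucn3 (SD 0.513) lie at the upper edge of the cloud, and Crhr1 (SD 0.127) lies within it.

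In bulk tissue, fewer cells of a type and less RNA per cell cannot be told apart. Marker lists were therefore set beside the members library by library, as a description. Crh was highest in high library 3, which also had the highest mean log2(FPKM + 1) of the hypothalamus list (2.39, against 1.72 and 1.78 in the other high libraries and 1.20 to 1.67 in the low libraries). That place was not particular to this list. The means of the GABA neuron (5.85), medial amygdala (1.97), central amygdala and astrocyte (5.36) lists were highest in high library 3 too. Of 8 hypothalamic markers 5 were listed, with summed FPKM of 12.7 to 32.8 in the high group and 8.97 to 14.4 in the low group. The listed ones were Oxt, Avp, Trh, Pomc and Agrp, while Hcrt, Pmch and Sim1 were not analysed here. Of these 5, Oxt, Avp and Trh were highest in high library 3, with Avp, the vasopressin gene, at 15.8 FPKM there. Agrp was highest in high library 1, and Pomc, at 0.540 FPKM in high library 3, was highest in low library 1.

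The central amygdala list had its highest mean in the same library (3.92) and its lowest in low library 3 (3.07), where Crh was lowest as well. All 6 of its genes were listed, with summed FPKM of 115 to 244 in the high group and 89.0 to 217 in the low group. Tac2, a tachykinin gene of central amygdala neurons, had 6.97, 7.14 and 19.4 FPKM in the high libraries, against 11.4, 12.4 and 5.87 FPKM in the low libraries. Of the 6 genes, Tac2, Nts and Dlk1 were highest in high library 3, while Penk was highest in high library 1, Prkcd in low library 1 and Calcrl in low library 2. Low library 3 held the lowest value of 4 of them, and high library 2 that of Nts and Calcrl, so the genes of the list did not all follow Crh. The summed level was highest in high library 1. Low library 3 was also the library with the most choroid plexus RNA. The part of these markers in the Crh values was not tested.

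Of 16 marker lists, 3 had means with separate groups, as Crhr1 had. Taken singly, 14.9% of all tested genes had separate groups, and no list was tested. The oligodendrocyte list was higher in each high library, with 7 of 7 genes higher on average and summed FPKM of 353 to 410 in the high group and 319 to 352 in the low group. The hypothalamus list was also higher in each high library by mean log2(FPKM + 1), but of its 5 listed genes only Oxt had separate groups. Oxt was 1.57, 1.86 and 5.06 FPKM in the high libraries, against 0.679, 0.835 and 0.137 FPKM in the low libraries. Summed FPKM of that list overlapped, at 12.7 to 32.8 in the high group and 8.97 to 14.4 in the low group. The list of ependyma and motile cilia was lower in each, with a mean log2(FPKM + 1) of 1.28 to 1.43 in the high group and 1.91 to 2.59 in the low group. All 7 of its listed genes, of 8, were lower on average, 6 of them with separate groups, beside 7.61% of all tested genes. Summed FPKM of the list were 11.8 to 13.8 in the high group and 20.6 to 40.5 in the low group.

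Beside Crhbp, the list of cortical interneurons had its highest mean in high library 2 (5.32), close to that of low library 3 (5.24). Its genes did not share this place: of 6, Pvalb and Cck were highest in high library 2, Sst and Lhx6 in high library 3, Npy in high library 1 and Vip in low library 3. Summed FPKM of that list were 650 to 687 in the high group and 571 to 622 in the low group. The list of glutamate neurons had another order, with its highest means in high library 1 (4.13) and low library 3 (4.12). Its mean in high library 2 was 3.94. Over the 5 lists of hypothalamus, central amygdala, oligodendrocytes, ependyma and cortical interneurons, the lowest value of a listed marker was 0.137 FPKM, so none was at 0. The part of the marker lists in the Crhr1 and Crhbp values was not tested.

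**Figure D3:**
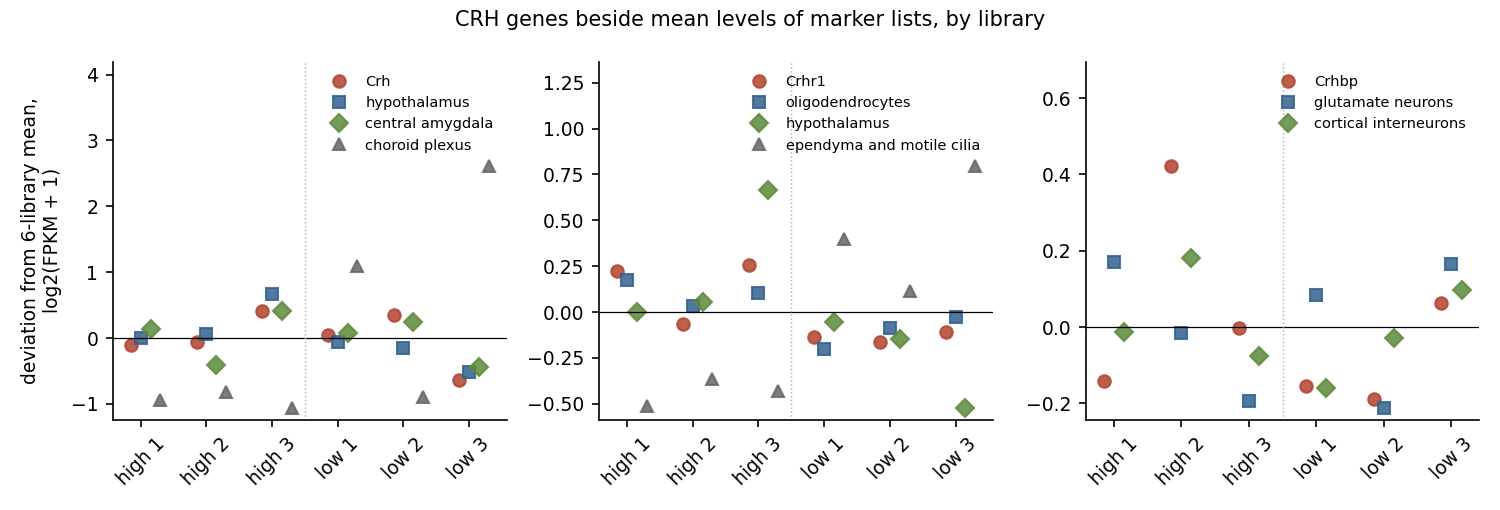
Deviation of Crh, Crhr1 and Crhbp from their own mean over 6 libraries, in log2(FPKM + 1), beside that of the mean of marker lists; high libraries left of low libraries, and each panel has its own vertical scale. Crh and the central amygdala list are both highest in high library 3 and lowest in low library 3. In the Crhr1 panel the list of ependyma and motile cilia is lower in each high library, and in the Crhbp panel the cortical interneuron mean is highest in high library 2 (5.32) and next in low library 3 (5.24). The glutamate neuron mean in the Crhbp panel is highest in high library 1 (4.13).

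Crhr2, the receptor for the urocortins, ran the other way from Crhr1 without separate groups. It was 1.37, 1.59 and 1.82 FPKM in the high libraries, against 1.77, 1.59 and 2.51 FPKM in the low libraries, with the highest value in low library 3. The log2 difference was −0.18 (SE 0.135; limma adjusted p = 0.717). The difference was −0.05 without low library 3 and −0.22 without low library 1. Without both it was 0.00014, which leaves a single low library. Both carried choroid plexus RNA, and its part in the Crhr2 values was not tested. Ucn3 was 2.47, 4.49 and 5.48 FPKM in the high libraries, against 5.88, 3.72 and 2.19 FPKM in the low libraries, so both groups covered nearly the same range (log2 difference 0.08, SE 0.304; limma adjusted p = 0.946).

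Because FPKM are per length, the balance of the genes can be roughly read within a library, and a scaling of the whole library drops out. Effects of GC content and of the transcript model were not removed from these ratios. The level of Crhr1 was 7.05, 4.84 and 5.44 times that of Crhr2 in the high libraries, against 4.14, 4.50 and 2.97 times in the low libraries. This ratio averaged 5.78 ± 1.14 over the high libraries, against 3.87 ± 0.801 over the low ones (SD, n = 3 each), with separate groups and an exact 2-sided permutation p of 0.1 on its log2, the smallest possible. The ratio is not independent of Crhr1, whose groups were separate, and low library 2 (4.50) lay close to high library 2 (4.84). The other low libraries carried choroid plexus RNA, whose part in the ratio was not tested. Crhbp was 5.65, 8.15 and 3.82 times the level of Crh in the high libraries and 4.77, 3.50 and 11.9 times in the low libraries. The largest ratio came from low library 3, where Crh was lowest, and the groups overlapped (exact 2-sided permutation p = 1.0). Crhbp over Crhr1 (exact 2-sided permutation p = 0.8) and Crhr1 over Crh (exact 2-sided permutation p = 1.0) overlapped as well. All 4 ratios were chosen after the values were seen, and their p-values are not adjusted for the number of ratios.

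Genes that make, transmit and end the CRH signal were counted in 6 lists, with 66 tested genes including the members. By limma, 0 passed over all genes, 32 were higher and 34 were lower, and their median log2 difference was −0.0038, against 0.00018 over all tested genes. At an unadjusted p under 0.05 in limma there were 12 of 66, or 18.2%, beside 8.39% of all tested genes. The groups did not overlap in 18 of 66, or 27.3%, beside 14.9% of all tested genes. Of the 66, 13 were separate and higher in the high group, beside 7.33% of all tested genes, and 5 separate and lower, beside 7.61%. The members and lists were chosen with earlier results of these data known, so these counts cannot test the lists.

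The CRH peptide family and its receptors had 5 tested genes, 4 higher and 1 lower, with a median of 0.16. Enzymes and helpers that cut neuropeptide precursors had 8 tested genes, 3 higher and 5 lower, and a median of −0.05. Pam, which makes the terminal amide of peptides such as CRH, averaged 17.3 ± 0.169 FPKM in the high group, against 15.9 ± 1.17 FPKM in the low group. Its groups were separate and higher, as in 7.33% of all tested genes. The convertase Pcsk1 averaged 7.07 ± 0.875 FPKM in the high group, against 7.74 ± 0.383 FPKM in the low group, and overlapped. Pcsk5, another convertase, stood at 1.63 ± 0.371 FPKM in the high group, against 2.21 ± 0.323 FPKM in the low group. Pcsk1n, an inhibitor of Pcsk1, stood at 140.4 ± 2.27 FPKM in the high group, against 130.8 ± 11.7 FPKM in the low group, and both overlapped.

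The Gs and cyclic AMP list, the main route below CRHR1, had 24 tested genes, 11 higher and 13 lower, with a median of −0.0045. Separate groups were found in 6 genes that were higher and 1 that was lower, beside 7.33% and 7.61% of all tested genes. Pde4a, a phosphodiesterase that breaks down cyclic AMP, was 24.9, 24.3 and 22.8 FPKM in the high libraries, against 20.9, 20.5 and 20.3 FPKM in the low libraries (log2 difference 0.21, SE 0.0598; limma adjusted p = 0.548). All 3 high libraries lay above all 3 low ones. Adcy3, an adenylyl cyclase, averaged 10.8 ± 0.639 FPKM in the high group, against 9.40 ± 0.453 FPKM in the low group, with separate groups. Creb1, the transcription factor that answers cyclic AMP, was the separate gene on the lower side, at 2.45 ± 0.215 FPKM in the high group, against 3.02 ± 0.136 FPKM in the low group. Its log2 difference of −0.22 (SE 0.0843; limma adjusted p = 0.582) was −0.08 with the trend on GC content and length removed. Gnas, which encodes the alpha subunit of Gs, averaged 8.41 ± 1.40 FPKM in the high group, against 6.63 ± 0.655 FPKM in the low group, a value that is uncertain because this locus makes several overlapping transcripts. Its groups were separate, and its log2 difference was 0.30, or 0.18 without high library 3.

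The Gq and MAP kinase list, a further route below CRHR1, had 11 tested genes, 2 higher and 9 lower, with a median of −0.07. Prkce, a protein kinase C, had separate groups, at 65.3 ± 5.38 FPKM in the high group, against 73.2 ± 3.60 FPKM in the low group (log2 difference −0.16, SE 0.0769; limma adjusted p = 0.601). Among all tested genes, 7.61% were separate and lower. Mapk3, a MAP kinase gene, and Prkcb, another protein kinase C gene, overlapped, with log2 differences of −0.18 (SE 0.0840) and 0.19 (SE 0.0892).

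Receptor kinases, arrestins and regulators that end the signal had 8 tested genes, 6 higher and 2 lower, with a median of 0.08. Arrb1, an arrestin that binds active receptors, was 42.6, 40.4 and 43.5 FPKM in the high libraries, against 38.0, 39.2 and 36.6 FPKM in the low libraries (log2 difference 0.15, SE 0.0602; limma adjusted p = 0.582). Its groups were separate, as were those of Arrb2 (27.4 ± 2.15 FPKM in the high group, against 24.8 ± 0.735 FPKM in the low group) and of the receptor kinase Grk6 (21.4 ± 0.952 FPKM in the high group, against 19.9 ± 0.454 FPKM in the low group). These 3 of 8 genes were separate and higher, beside 7.33% of all tested genes. Grk3, a receptor kinase known to act on CRHR1, overlapped at 18.8 ± 0.841 FPKM in the high group, against 20.5 ± 1.02 FPKM in the low group.

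Partners of the stress axis and corticosteroid receptors had 10 tested genes, 6 higher and 4 lower, with a median of 0.03. Pomc lay below the minimum level, and Avpr1b and Mc2r were not analysed here. Adcyap1, the gene of the peptide PACAP, which acts upstream of CRH neurons in the stress response, was 12.5, 9.55 and 11.7 FPKM in the high libraries, against 7.65, 9.05 and 6.79 FPKM in the low libraries. The groups were separate, with high library 2 closest to the low group (log2 difference 0.47, SE 0.121; limma adjusted p = 0.519). Nr3c2, the mineralocorticoid receptor gene, averaged 4.54 ± 0.582 FPKM in the high group, against 5.77 ± 0.423 FPKM in the low group, and Hsd11b1, which regenerates active corticosteroid, averaged 1.46 ± 0.0682 FPKM in the high group, against 1.94 ± 0.286 FPKM in the low group. Both were separate and lower in the high group. Fkbp4, a chaperone partner of the steroid receptors, averaged 52.6 ± 1.62 FPKM in the high group, against 47.5 ± 1.86 FPKM in the low group, with separate groups. In this list 2 genes were separate and higher and 2 separate and lower, beside 7.33% and 7.61% of all tested genes. Nr3c1, the glucocorticoid receptor gene, was 7.59, 5.58 and 7.89 FPKM in the high libraries, against 7.76, 8.35 and 6.83 FPKM in the low libraries, which overlapped.

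**Figure D4:**
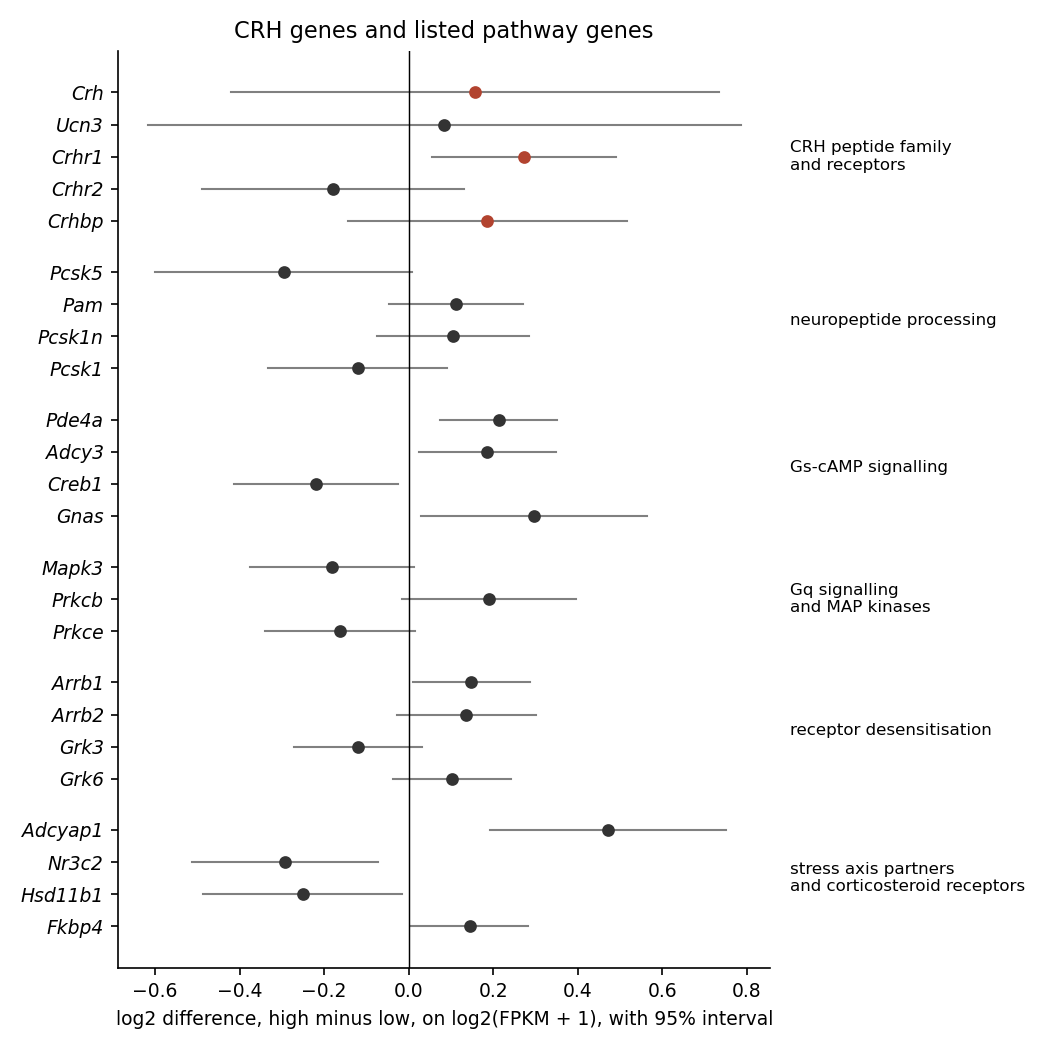
Log2 difference of high minus low on log2(FPKM + 1), with its 95% interval from limma, for the CRH family (members in red) and up to 4 genes per pathway list with the smallest p, of those reported here. Intervals are unadjusted: that of Crhr1 runs from 0.06 to 0.49, those of Crh and Crhbp include 0, and no gene passed after adjustment.

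The genes whose levels followed each member most closely over the 6 libraries were taken by Pearson's r of log2(FPKM + 1) among 11660 other genes, as a description. For Crhr1 they were Nfatc2, a calcium-regulated transcription factor (r = 0.989), Snrpe, a core protein of the spliceosome (0.988), and Sgpp2, a lipid phosphatase (0.987). Nfatc2 was 2.39, 1.83 and 2.34 FPKM in the high libraries, against 1.73, 1.59 and 1.73 FPKM in the low libraries, with high library 2 lowest of the high group as in Crhr1. Among those for Crh were the zinc finger gene Zfp14 (r = 0.987) and the kinase anchor Akap8 (0.984). For Crhbp they were the ubiquitin ligase gene Chfr (r = 0.994), the vesicle tethering gene Vps52 (0.993) and Ddost, a subunit of the enzyme that adds glycans to proteins (0.988). Of the 11660 genes, 78 had an r over 0.9 with Crh, 121 with Crhr1 and 130 with Crhbp. The genes named are the highest of so many over only 6 libraries, so their r is high by choice.

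**Figure D5:**
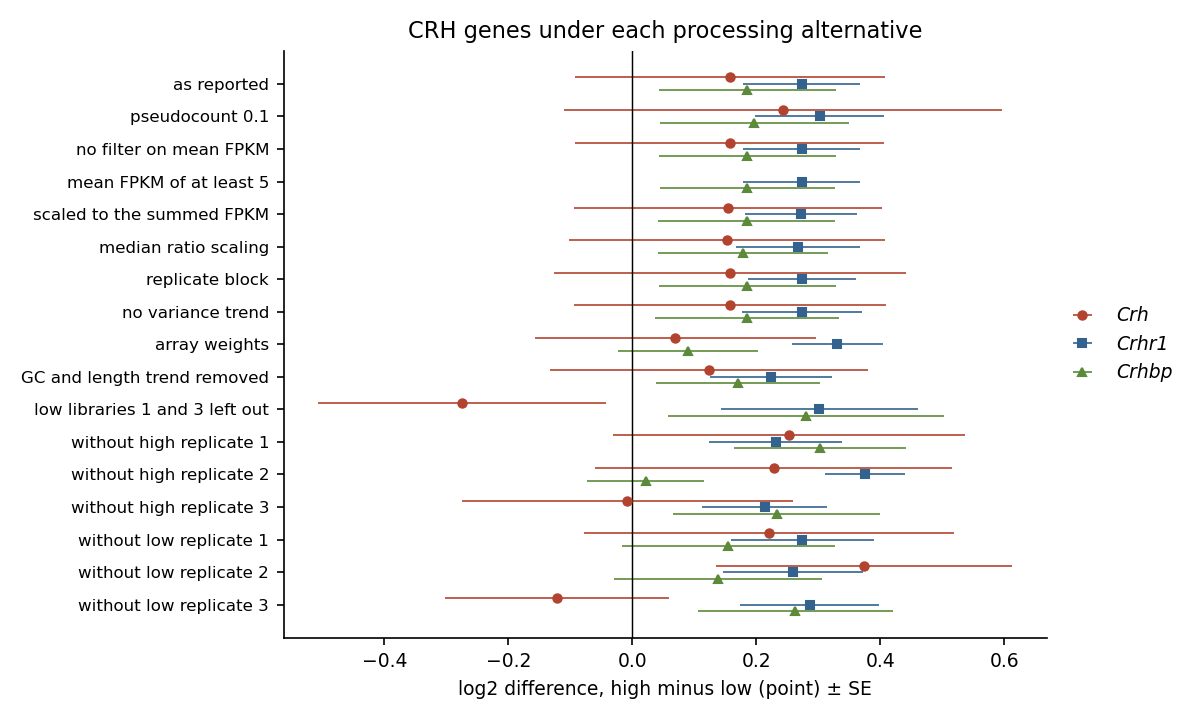
Log2 difference of high minus low (point) with its SE (bar) for Crh, Crhr1 and Crhbp as reported and under each processing alternative; Crh has no value where the minimum was a mean FPKM of 5. Crhr1 stays between 0.21 and 0.38, Crhbp falls to 0.02 without high library 2, and Crh lies on either side of 0.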

How the data were processed

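Poly(A) RNA libraries from brain tissue, 3 of the high and 3 of the low group, were grouped by the submitters' group label. Gene levels were deposited as FPKM, by the name of the deposited table, made with fastp, HISAT2 and StringTie on GRCm38, per the submitters' processing notes, which give no versions or settings. The authors' deposited table also holds a log2 fold change and a p-value per gene; the labels do not name their test. The table has 0 values at 0 and a lowest mean of 0.500 FPKM.

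FPKM hold no counts, so log2(FPKM + 1) was compared over the 12026 genes that reached a mean FPKM of 1 with limma 3.58.1 in R 4.3.3 (trended variance, 2-sided, Benjamini-Hochberg threshold 0.05), and group means of FPKM with exact permutation tests (scipy 1.17.1, Python 3.11.15). The fit was tested on simulated data. Up to 4 genes per list with the smallest p and the 3 genes most alike each member, without predicted models, are named, except for a few that are not reported here; Ucn3, Tac2, Nr3c1 and the tissue markers were added after their values were seen. The members and lists were chosen with earlier results of these data known. Alternatives were other pseudocounts, filters, scalings, weights, a replicate block, a GC and length trend (splines with 5 degrees of freedom), and libraries left out. Gene models and the Crh sequence are from GENCODE for GRCm38.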

Additional observations from a re-analysis of the deposited data

How the results depend on the processing

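Of 16 alternatives, all kept Crhr1 (0.21 to 0.38) and Crhbp (0.02 to 0.30) above 0, with adjusted limma p-values of 0.117 to 0.979 for Crhr1 and 0.674 to 0.979 for Crhbp. Crh had a value under 15 of them, since its mean lies below 5 FPKM, and its sign turned in 3: it was −0.28 without low libraries 1 and 3, and it ranged from −0.12 to 0.37 when each library was left out in turn, with adjusted p-values of 0.789 to 0.995 over all 15. Of 347 values of the 22 other genes followed, 4 turned sign: that of Crhr2 without low libraries 1 and 3 (0.00014), and 3 of Ucn3, which was −0.22 with array weights and −0.19 to 0.36 with each library left out in turn. A further 27 values, of 15 genes, kept their sign but shrank by more than 1.5 times, and 5 grew as much. Removing the GC and length trend shrank the values of 6 genes, among them Creb1 (−0.22, then −0.08) and Pcsk1 (−0.12, then −0.0024), and leaving out low libraries 1 and 3 those of 7, among them Adcyap1 (0.47, then 0.28). Leaving out 1 library shrank Pcsk1n (0.11, then 0.03 without low library 2), Arrb2 (0.14, then 0.08 without high library 2) and Gnas (0.30, then 0.18 without high library 3). Limma called 0 genes each time, with 361 to 1567 at an unadjusted p under 0.05, the most with array weights and the fewest without low libraries 1 and 3. No pairing by replicate number was seen, though 3 libraries per group cannot exclude one: deviations of same-numbered libraries correlated at −0.0939, −0.206 and −0.156. With the replicate block 0 genes passed (743 at an unadjusted limma p under 0.05), and Crhr1 had 0.27 (limma adjusted p = 0.757). Absolute depth is unknown, so counting error behind the low Crh values cannot be given.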
